A study of Mus musculus with 550 samples.

Results

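The genes described here are metallothionein 1 (Mt1), 8 zinc transporters and the zinc-sensing transcription factor Mtf1, measured in 7 organs of C57BL/6 mice 6 or 12 h after a single dose of fumarate esters. The 10 genes were Mt1, the transporters Slc30a1, Slc30a2, Slc30a4, Slc30a5, Slc39a4, Slc39a5, Slc39a10 and Slc39a14, and Mtf1, out of 17097 genes with a probe set of their own. Each gene was represented, in each organ, by the probe set annotated to that gene alone with the highest mean level. All 10 genes were present, and the choice used no difference between treatments.

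Every animal except the naive ones received a single dose. Vehicle animals received hydroxypropyl methylcellulose only. A pair of groups received dimethyl fumarate (DMF) alone, with doses of 100 and 179.2 mg/kg. A further group received mixed calcium, magnesium and zinc salts of monoethyl fumarate (MEF) at 79.2 mg/kg, and the combination group received DMF at 100 mg/kg together with the MEF salts at 79.2 mg/kg. Naive animals, which received no dose, were sampled at 12 h only. The MEF salts are the only agent here that brings zinc, and zinc and monoethyl fumarate were always given together, so their shares in any change cannot be told apart. The organs were brain, inguinal lymph nodes (ILN), mesenteric lymph nodes (MLN), jejunum, kidney, spleen and whole blood. The 550 arrays fell into 77 groups of 3 to 8 animals, with 1 array for each animal and organ, so the p-values measure the spread between animals. The labels give neither sex nor age.

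Metallothioneins are small cysteine-rich proteins that bind zinc, copper and cadmium in the cytosol. Transporters of the Slc30 family (ZnT proteins) move zinc out of the cytosol, either across the plasma membrane or into vesicles, and transporters of the Slc39 family (ZIP proteins) move it in. MTF1 senses free zinc, binds metal response elements and switches on Mt1 and Slc30a1, so those genes are widely used as readouts of cellular zinc. Metallothionein genes also respond to oxidative stress and to glucocorticoids. DMF is hydrolysed to monomethyl fumarate, and fumarate esters modify cysteines of KEAP1 and thereby activate NRF2, whose targets include Nqo1 and Hmox1.

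The metal response element has a core written here as TGCACNC or TGCGCNC. The core was searched on both strands in the 250 bases before each transcription start of RefSeq's promoter table (GRCm38.p6), which held entries for 8 of the 10 genes. These 8 genes had 10 entries, of which 6, each of a different gene, held at least 1 match. Of all 32851 entries, with the same length searched, 21.4% held one. The stretches below are of Mt1, Slc30a1, Slc30a4 and Slc30a5. These held a match and were called higher (defined below) in kidney at 6 h after at least 1 treatment. Each is 30 bases on the strand of the gene, with the match in capitals. The Mt1 match reads in the direction of the gene and the other 4 lie on the opposite strand.
Mt1, chr8:94179054-94179083, plus strand, match 23 bases before the start: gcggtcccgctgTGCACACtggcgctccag
Slc30a1, chr1:191906726-191906755, plus strand, 43 bases before the start: aacgggggttccGAGTGCAaagcaaagttt
Slc30a4, chr2:122702738-122702767, minus strand, 92 bases before the start: ctcgcgcctcgcGGGCGCAcgcgccgcctc
Slc30a4, chr2:122702874-122702903, minus strand, 228 bases before the start: cccgggggctcaGAGCGCAcaagacctcag
Slc30a5, chr13:100833458-100833487, minus strand, 48 bases before the start: acgtgtccaccaGCGCGCAggcgcaggatt
The stretches of Mt1 and Slc30a1 lie inside the annotated span of their genes, which begins upstream of the start used in the table. Slc30a2 and Slc39a5, called in no dosed group of kidney against vehicle, held the other matches. The windows of Slc39a10 and Mtf1 held none, although both genes were called in kidney. The 50 bases after each start were left out of the search. They held 2 further matches for Mt1 and 1 each for Slc30a1 and Slc30a4. A match describes letters, not a bound site.

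Several features of the arrays bear on the values. Arrays of an organ and time share 1 lowest value, so each organ and time seems to have been normalized as its own set. Levels are therefore compared only within an organ and time. The labelled organs were borne out by their markers, such as Umod and Kap in kidney, Fabp2 and Vil1 in jejunum and Snap25 in brain. In jejunum, 4 arrays at 12 h, 3 of vehicle and 1 of DMF 100, carried Hox genes of the distal intestine. In spleen 19 arrays, and in MLN 2, carried pancreatic or liver genes. Animal numbers ran in blocks of 12, and the groups sat at different places in them: vehicle and MEF animals were both in places 1 to 8, whereas the other dosed groups and the naive group took in places 9 to 12. The labels do not say what that order stands for. All dosed groups of an organ and time were compared with the same vehicle arrays. The organs were taken whole, so fewer cells of a type and less RNA per cell cannot be told apart.

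In kidney at 6 h Mt1, Slc30a1 and Slc30a4 rose after every treatment. A call below means a Benjamini-Hochberg adjusted p under 0.05 over all 17097 genes in limma, given as FDR. Over the 14 sets of organ and time, 7 of 140 tests of these genes were called for the MEF salts, 4 higher and 3 lower, which is 5% against 2.26% of tests of all genes. For the combination, 11 were called, 7 higher and 4 lower, or 7.86% against 3.69%. For DMF 100, 3 were called, all higher, or 2.14% against 0.738%. For DMF 179.2, 24 were called, 18 higher and 6 lower, or 17.1% against 7.67%. The comparisons share vehicle arrays and the genes were chosen with results of these data known, so these shares are a description. Mt1 was called in 2 of 14 sets after the MEF salts, 3 after the combination, 1 after DMF 100 and 5 after DMF 179.2, each time higher. Slc30a2, a vesicular exporter of secretory cells, was the only one of the 10 that was called in no comparison of a dosed group with vehicle. It was well above the lowest array value only in jejunum (mean 9.33) and kidney (7.63). In ILN (2.30), MLN (2.32) and blood (2.32) it lay near that value, and it was dim in brain (2.93) and spleen (3.53). A change in those organs could be missed.

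**Figure D1:**
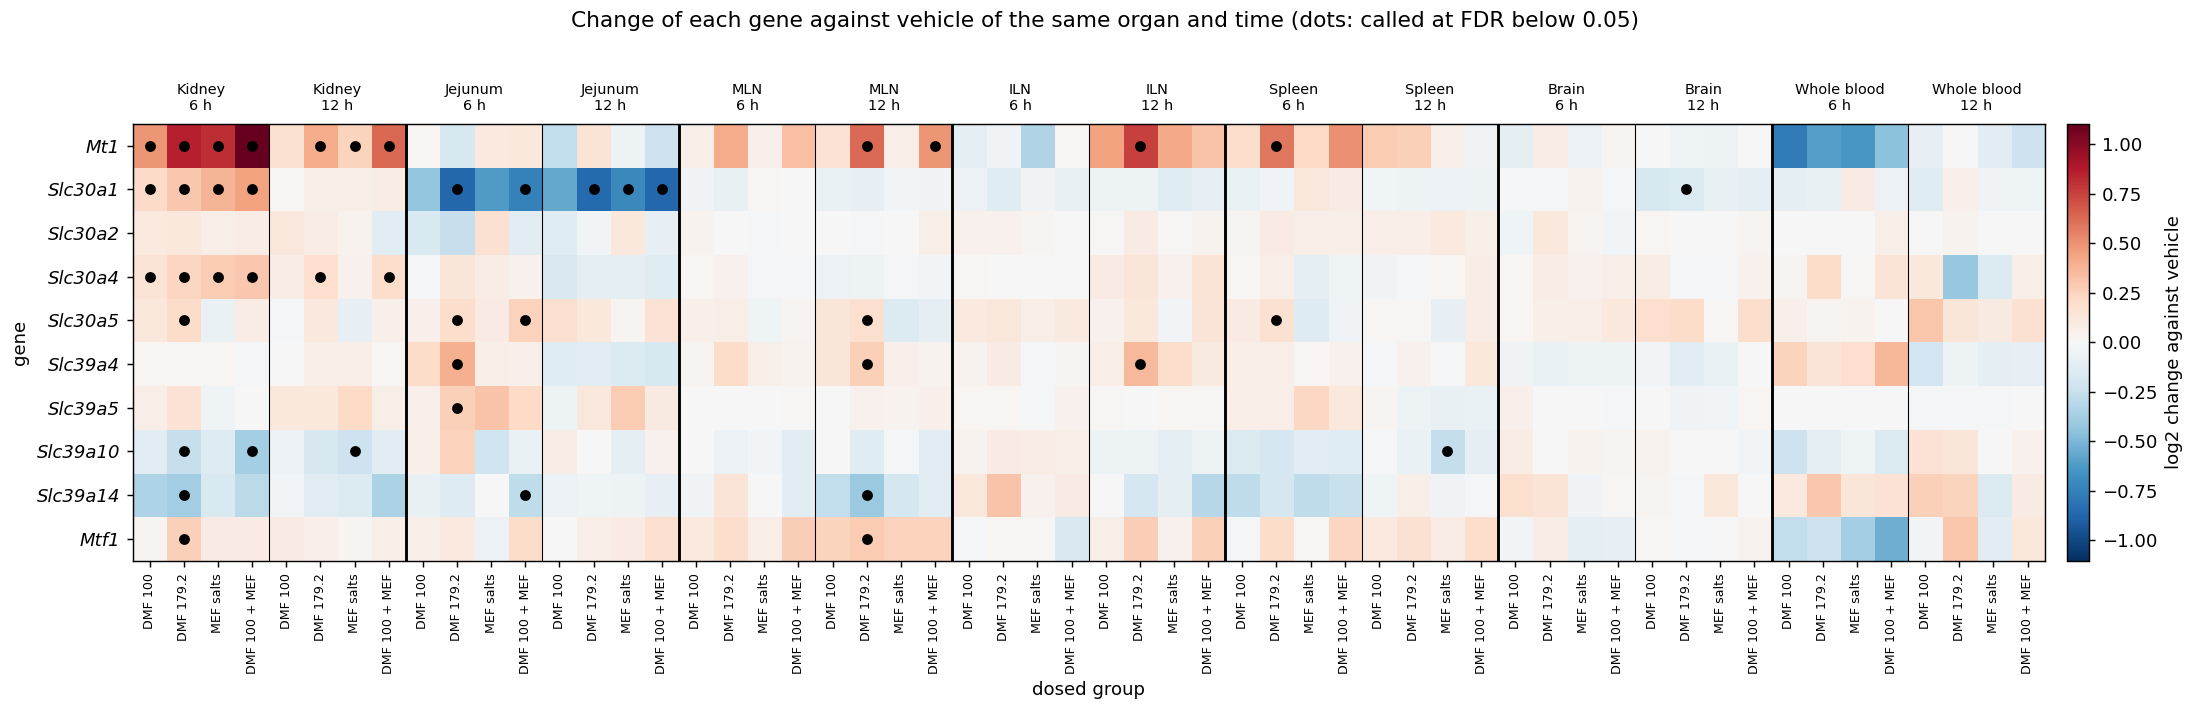
Change of each of the 10 genes (rows) against vehicle of the same organ and time (columns, 4 dosed groups in each of 14 sets), as a log2 difference from blue (lower) to red (higher). Black dots mark calls at FDR below 0.05. The dots gather in kidney at 6 h, where Mt1, Slc30a1 and Slc30a4 are red in all 4 groups, and Slc30a1 in jejunum is blue.

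In kidney at 6 h, Mt1 lay between 11.54 and 11.79 (log2 level) in the 7 vehicle arrays, with a median of 11.72. In the 8 DMF 100 arrays it ran from 12.02 to 12.54 with a median of 12.13. In the 8 MEF arrays it ran from 12.27 to 12.68 with a median of 12.50, and in the 8 DMF 179.2 arrays from 12.37 to 12.78 with a median of 12.55. The 7 combination arrays were the highest, from 12.66 to 12.95 with a median of 12.84. No dosed array of any group reached down into the vehicle range. The group means stepped up from vehicle (11.70 ± 0.09, SD) through DMF 100 (12.19 ± 0.19), the MEF salts (12.51 ± 0.12) and DMF 179.2 (12.56 ± 0.12) to the combination (12.80 ± 0.10), and of these steps only the one from the MEF salts to DMF 179.2 was within the SD.

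Against vehicle, Mt1 was 1.75-fold higher after the MEF salts (log2 difference 0.81 ± 0.06, SE, FDR 4.0006e-17) and 2.15-fold higher after the combination (FDR 3.9827e-23). The rise was not limited to groups given zinc. It was 1.41-fold after DMF 100 (0.49 ± 0.06, FDR 1.6445e-08) and 1.81-fold after DMF 179.2 (0.86 ± 0.06, FDR 2.9094e-18), although neither contained a zinc salt. A dimmer, second Mt1 probe set rose as well, by 0.75 after DMF 100, 0.77 after the MEF salts, 1.15 after DMF 179.2 and 1.69 after the combination. The main Mt1 probe set is of a type whose probes can match more than 1 transcript, and its near-identical neighbour Mt2 was not measured apart from it, so the signals of the pair cannot be separated.

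**Figure D2:**
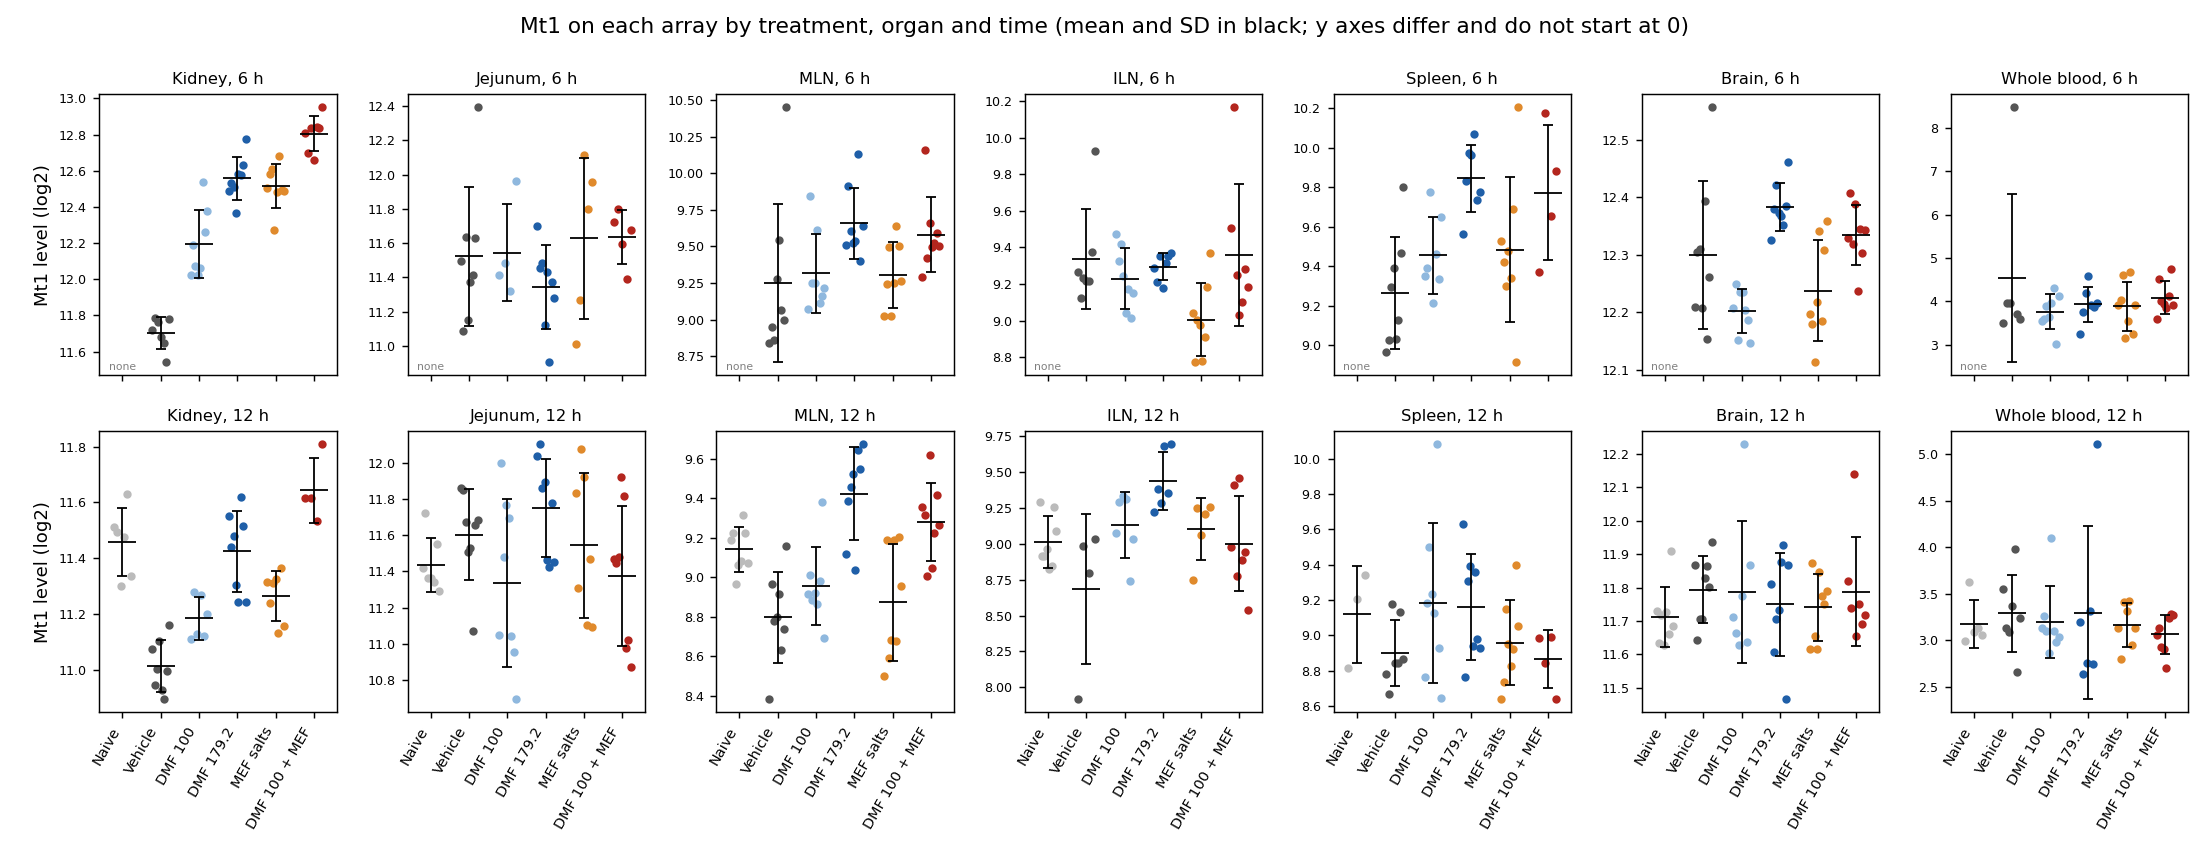
Mt1 level (log2, y axis, not starting at 0) on every array, with 1 panel for each organ and time and the treatment groups along the x axis. Points are single animals and black bars give the mean and SD. In kidney at 6 h all dosed arrays lie above the highest vehicle array at 11.79, while brain shows overlapping groups.

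At the same DMF dose, adding the MEF salts raised kidney Mt1 further. The combination was 1.53-fold above DMF 100 alone (0.61 ± 0.06, FDR 1.8473e-10), without overlap between the arrays. It was also 1.19-fold above DMF 179.2 (0.25 ± 0.06, FDR 0.0037201), a group given no MEF salts and more DMF, but this difference was 0.11 with FDR 0.43 when restricted to the animal places that both groups shared. The MEF salts alone stood 0.32 ± 0.06 above DMF 100 (FDR 0.0024754). That step is between unequal doses of different esters, and it fell to 0.17 (FDR 0.31) when all Mt1 probe sets were averaged and to 0.18 (FDR 0.69) in the shared places. Of the 10 genes, Mt1 and Slc30a1 were called higher in the combination than in DMF 100, where 1.63% of all genes were called. The same pair was called higher in the combination than in DMF 179.2, with 13.2% of all genes called. Between the MEF salts and DMF 100, where 1.57% were called, Mt1 and Slc30a1 were higher and Slc30a5 was lower (-0.19, FDR 0.034103).

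Slc30a1 (ZnT1), the plasma membrane exporter of zinc, moved with Mt1 in kidney at 6 h. Its level in the vehicle arrays ran from 11.12 to 11.33 with a median of 11.26. The MEF arrays ran from 11.51 to 11.71 with a median of 11.61, and the combination arrays from 11.58 to 11.77 with a median of 11.67. Both groups were thus clear of vehicle, as was DMF 179.2, and DMF 100 overlapped it. The rise was 0.37 ± 0.04 after the MEF salts (FDR 9.068e-12), 0.44 ± 0.04 or 1.36-fold after the combination (FDR 3.8472e-14), 0.30 ± 0.04 after DMF 179.2 (FDR 5.8018e-09) and 0.21 ± 0.04 after DMF 100 (FDR 0.00016064). In contrast to Mt1, the order of the means put the MEF salts above DMF 179.2, by more than their SD, but this pair was not tested. On the dimmer Slc30a1 probe set the order was reversed. It rose by 0.27 after the MEF salts, 0.48 after the combination, 0.35 after DMF 179.2 and 0.25 after DMF 100. The order thus depends on the probes, and the values that follow are of the main probe set. The combination exceeded DMF 100 by 0.23 (FDR 8.1557e-05) in Slc30a1. Its excess over DMF 179.2 (0.14, FDR 0.0075148) and that of the MEF salts over DMF 100 (0.17, FDR 0.0081738) shrank in the shared places to 0.10 (FDR 0.28) and 0.08 (FDR 0.69).

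Slc30a4 (ZnT4), an exporter that loads zinc into endosomes and vesicles, rose in the same 4 comparisons. Vehicle arrays lay between 9.09 and 9.31 with a median of 9.23. The rise was 0.28 after the MEF salts (FDR 1.7331e-06), 0.30 after the combination (FDR 6.474e-07) and 0.24 after DMF 179.2 (FDR 1.3937e-05), and in these groups no array overlapped vehicle. After DMF 100 it was 0.15 (FDR 0.028493), with overlap, and 0.14 (FDR 0.061702) with place in the model. Slc30a5 (ZnT5), which carries zinc into the early secretory pathway, rose in kidney at 6 h only after DMF 179.2 among the comparisons with vehicle (0.20, FDR 0.0022378).

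Of the 4 importers among the 10 genes, none was called in kidney at 6 h after the MEF salts or DMF 100, 1 was lower after the combination and 2 were lower after DMF 179.2. Slc39a10 (ZIP10), an importer at the plasma membrane, averaged 9.19 ± 0.18 in vehicle and 8.82 ± 0.18 in the combination, a fall of 0.37 ± 0.08 on the log2 scale (FDR 0.00054144). After DMF 179.2 it fell by 0.25 (FDR 0.011434). A dimmer probe set of Slc39a10 changed by -0.75 and -0.95 in those groups, so its size depends on the probes. Slc39a14 (ZIP14), an importer of zinc and iron, fell from 7.78 ± 0.16 to 7.40 ± 0.17 after DMF 179.2, a change of -0.38 ± 0.11 (FDR 0.0068391). After DMF 100 its change was -0.34 (FDR 0.071616) and after the combination -0.29 (FDR 0.081965), neither of them called, but both passed when probe sets were averaged. The gut-type importers Slc39a4 and Slc39a5 were called in no dosed group of kidney. Mtf1 itself was called higher only after DMF 179.2 in kidney (0.26, FDR 0.028666), and not with place in the model (FDR 0.05606).

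**Figure D3:**
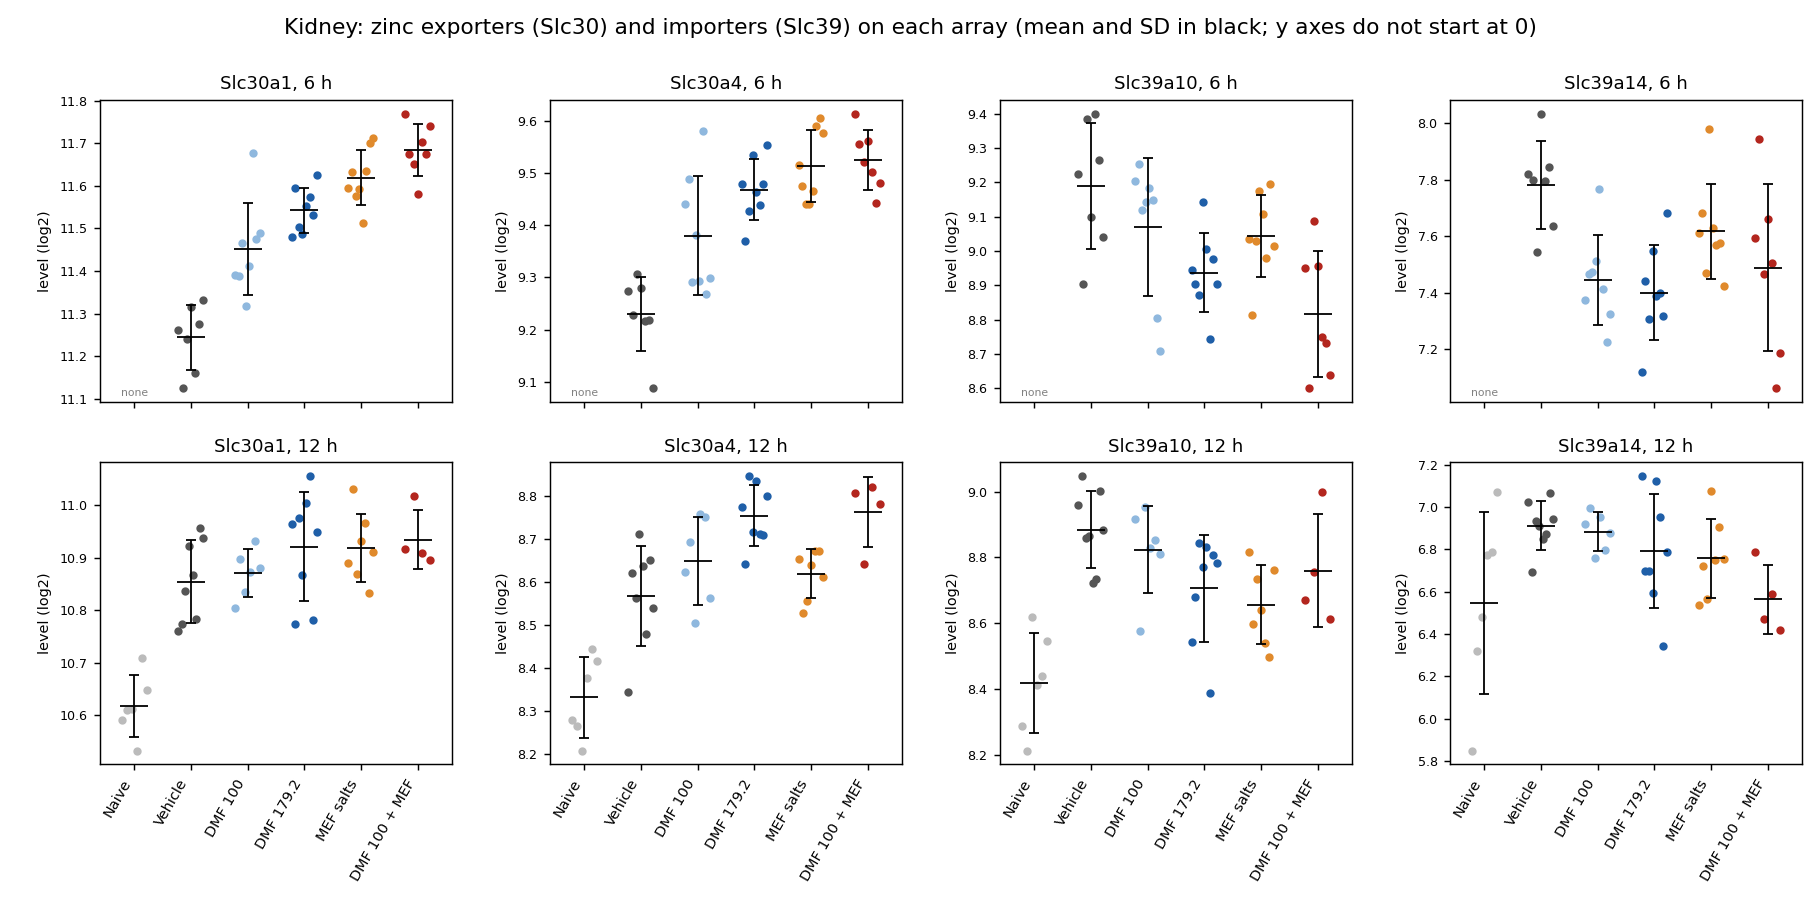
Levels (log2, y axes not starting at 0) of the exporters Slc30a1 and Slc30a4 and the importers Slc39a10 and Slc39a14 on each kidney array by treatment group, at 6 h (top) and 12 h (bottom), with mean and SD in black. At 6 h the exporters are higher in the MEF and combination arrays than in any vehicle array, and the Slc39a10 mean is lowest in the combination at 8.82.

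Counted over the 10 genes in kidney at 6 h, 3 were called higher and none lower after the MEF salts, against 5.9% of all genes called. The combination had 3 higher and 1 lower against 13.2%, DMF 100 had 3 higher against 4.07%, and DMF 179.2 had 5 higher and 2 lower against 25% of all genes. The median change over the 10 genes was 0.04 after the MEF salts, 0.08 after the combination, 0.09 after DMF 100 and 0.18 after DMF 179.2, with all genes centred at 0. The genes called after the MEF salts and after DMF 100 were Mt1, Slc30a1 and Slc30a4 in both.

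Other responses moved with Mt1 in the same kidneys. Hmox1, the inducible haem oxygenase, was higher by 3.67 after the MEF salts, 4.16 after the combination, 2.35 after DMF 100 and 3.47 after DMF 179.2. Nqo1, the quinone oxidoreductase used as an NRF2 readout, was higher by 1.40, 1.63, 1.37 and 1.49 in the same order. Over all kidney arrays, after the mean of each time was subtracted, Mt1 correlated with Hmox1 at r = 0.87, with Nqo1 at 0.64, with Slc30a1 at 0.61 and with Slc39a10 at -0.59, as a description of arrays that share animals and treatments. Of 8 glucocorticoid-responsive genes, none was called after the MEF salts (5.9% of all genes called). Fkbp5 (0.89, FDR 0.0054628) and Per1 (1.34) were higher after the combination (13.2%), and Per1 (1.02) was higher after DMF 100 (4.07%). After DMF 179.2 (25%) Per1 was higher (1.59) and Dusp1 (-0.37) and Zbtb16 (-1.32) were lower. The mean level of those 8 genes ran from 8.90 to 9.42 in vehicle arrays, from 9.03 to 9.57 in MEF arrays, from 9.32 to 10.48 in combination arrays, from 9.04 to 10.04 in DMF 100 arrays and from 9.15 to 9.40 in DMF 179.2 arrays. The part of these responses in the Mt1 result was not tested.

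By 12 h the kidney response was smaller. Mt1 ran from 10.89 to 11.16 in the 8 vehicle arrays, with a mean of 11.01 ± 0.09. The 4 combination arrays read 11.53, 11.62, 11.62 and 11.81, all above vehicle, and their mean was 1.55-fold higher (0.63 ± 0.07, FDR 7.9215e-10). These 4 arrays were all of animals at places 9 to 12, and the vehicle arrays of animals at places 1 to 8. Place and treatment thus cannot be told apart in that comparison. DMF 179.2 ran from 11.24 to 11.62, also without overlap, and was 0.41 ± 0.06 higher (FDR 6.1815e-07). The MEF salts overlapped vehicle and were 0.25 ± 0.06 higher (FDR 0.0022316), which was 0.23 with FDR 0.056328 when the probe sets were averaged. DMF 100 was at 0.17 ± 0.06 (FDR 0.22), not called, with all 6 arrays above the vehicle mean. The combination still exceeded DMF 100, by 0.46 ± 0.08 (FDR 3.9987e-05), the only one of the 10 genes called there in a comparison that called 4.26% of all genes. Its excess over DMF 179.2 was 0.22 ± 0.07 (FDR 0.18). The MEF salts and DMF 100 differed by 0.08 with a 95% interval from -0.05 to 0.21.

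The loss between the times was tested as the 12 h effect minus the 6 h effect, each against vehicle of its own time. It sets side by side times that seem to have been normalized apart. For Mt1 it was -0.56 ± 0.09 after the MEF salts (FDR 1.4309e-05), -0.47 ± 0.10 after the combination (FDR 0.0012346) and -0.45 ± 0.09 after DMF 179.2 (FDR 0.00030369). For DMF 100 it was -0.32 (FDR 0.11). These comparisons called 7.38%, 2.8%, 7.14% and 0.404% of all genes, in the same order. The effect on Slc30a1 shrank by 0.31 for the MEF salts (log2 difference -0.31, FDR 0.0001143), -0.36 for the combination (FDR 6.0599e-05) and -0.23 for DMF 179.2 (FDR 0.0026967). At 12 h its changes were between 0.02 and 0.08 and none was called. Slc30a4 lost its response to the MEF salts as well (-0.23, FDR 0.010679), but remained above vehicle after the combination (0.19, FDR 0.0066641, and 0.15 with FDR 0.085956 with place in the model) and after DMF 179.2 (0.19, FDR 0.0016126). Slc39a10 was called lower only after the MEF salts at 12 h (-0.23, FDR 0.032682). Its dimmer probe set was lower in every dosed group at 12 h. The changes there were -0.29 after the MEF salts, -0.41 after the combination, -0.37 after DMF 179.2 and -0.34 after DMF 100. The calls at 12 h were therefore 1 higher and 1 lower of 10 after the MEF salts (17.5% of all genes called), 2 higher after the combination (11%), 2 higher after DMF 179.2 (7.25%) and none after DMF 100 (1.38%).

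Dosing with vehicle alone also went with lower kidney Mt1. The 6 naive arrays ran from 11.30 to 11.63 with a mean of 11.46 ± 0.12, clear of vehicle (vehicle minus naive -0.44 ± 0.06, FDR 3.0914e-08). Thus the 12 h means of DMF 100, MEF and DMF 179.2 animals lay below the naive mean, and only the combination mean of 11.64 lay above it. Vehicle exceeded naive for Slc30a1 (0.24, FDR 9.8131e-07), Slc30a4 (0.24, FDR 1.0485e-05), Slc30a5 (0.22), Slc39a10 (0.46, FDR 2.358e-06) and Slc39a14 (0.37), and was below it for Slc39a5 (-0.49, FDR 0.00011493). These 7 calls came in a comparison that called 46% of all genes, and naive animals sat at other places than vehicle in part.

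In jejunum, the site of uptake of dietary zinc, Slc30a1 was lower in dosed than in vehicle animals, the opposite of kidney. At 6 h the 8 vehicle arrays ran from 10.24 to 11.34 with a median of 10.86. The 8 DMF 179.2 arrays ran from 9.41 to 10.41 with a median of 9.94. The 5 combination arrays read 10.04, 9.67, 9.82, 9.94 and 10.71, and the 5 MEF arrays 10.27, 10.51, 9.79, 10.19 and 9.99. All groups overlapped vehicle, mostly at its lower end. The fall was 1.83-fold after DMF 179.2 (log2 difference -0.87 ± 0.18, FDR 0.00053437) and 1.67-fold after the combination (-0.74 ± 0.20, FDR 0.014968). It was not called after the MEF salts (-0.62 ± 0.20, FDR 0.10) or DMF 100 (-0.44 ± 0.22, FDR 0.34). The combination result was lost with place in the model (-0.65, FDR 0.12), without combination animal 84 (-0.65, FDR 0.075577) and without combination animal 85 (-0.69, FDR 0.052847). A dimmer probe set of Slc30a1 changed by -0.41, -0.48, -0.38 and -0.05 after DMF 179.2, the combination, the MEF salts and DMF 100.

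At 12 h jejunal Slc30a1 was called lower after DMF 179.2 (-0.86 ± 0.18, FDR 0.0011618), the combination (-0.87 ± 0.18, FDR 0.0017626) and the MEF salts (-0.71 ± 0.18, FDR 0.040987). It was not called after DMF 100 (-0.56 ± 0.18, FDR 0.11). The vehicle arrays were spread widely, from 10.72 to 12.07, and the 4 arrays with distal intestinal Hox genes read 11.58 to 12.07, above all 42 others at 10.04 to 11.55. With those 4 arrays left out the differences were -0.52 (FDR 0.13), -0.53 (FDR 0.22) and -0.37 (FDR 0.69) in the same order, and none was called. The 7 naive arrays averaged 10.53 ± 0.24, at the level of the dosed groups and 0.86 below vehicle (FDR 0.0028531, 5.44% of all genes called), a difference that was 0.52 (FDR 0.25) without the 4 arrays. At 6 h no jejunal array carried those Hox genes, and their mean level was at most 2.84 in every group.

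Mt1 itself was called in no jejunal comparison with vehicle. After the MEF salts its change at 6 h was 0.11 with a 95% interval from -0.28 to 0.49 (0.23, FDR 0.70, without vehicle animal 58, which was high), and at 12 h -0.06. The dimmer Mt1 probe set changed by 0.23 at 6 h and 0.35 at 12 h after the MEF salts. In the other groups at 12 h it changed by 0.25 (combination), 0.70 (DMF 179.2) and -0.16 (DMF 100). The main probe set changed by -0.23, 0.15 and -0.27 in those groups, so the jejunal Mt1 result depends on the probes. Slc39a4 (ZIP4), the intestinal importer of dietary zinc, rose at 6 h after DMF 179.2 from 10.62 ± 0.16 to 11.02 ± 0.12 without overlap (0.40 ± 0.09, FDR 0.0023984). That effect was smaller at 12 h by -0.51 ± 0.13 on the log2 scale (FDR 0.015737), and by -0.36 (FDR 0.20) without the arrays with Hox genes, in a comparison that called 3.15% of all genes. Slc39a5 (ZIP5), a basolateral importer of enterocytes, rose in the same group (0.27, FDR 0.025544). Slc30a5 was called higher after the combination (0.25, FDR 0.023298) and DMF 179.2 (0.19, FDR 0.04703), and Slc39a14 lower after the combination (-0.28, FDR 0.027736), but with place in the model these were 0.09 (FDR 0.66), 0.04 (FDR 0.86) and -0.21 (FDR 0.23). The 6 h calls were thus 3 higher and 1 lower of 10 after DMF 179.2 (8.62% of all genes called), 1 higher and 2 lower after the combination (6.57%), and none after the MEF salts (1.19%) or DMF 100 (2.61%). At 12 h Slc30a1 was the only call, in comparisons that called 7.4% (DMF 179.2), 3.45% (combination), 0.813% (MEF salts) and 0.632% (DMF 100) of all genes.

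**Figure D4:**
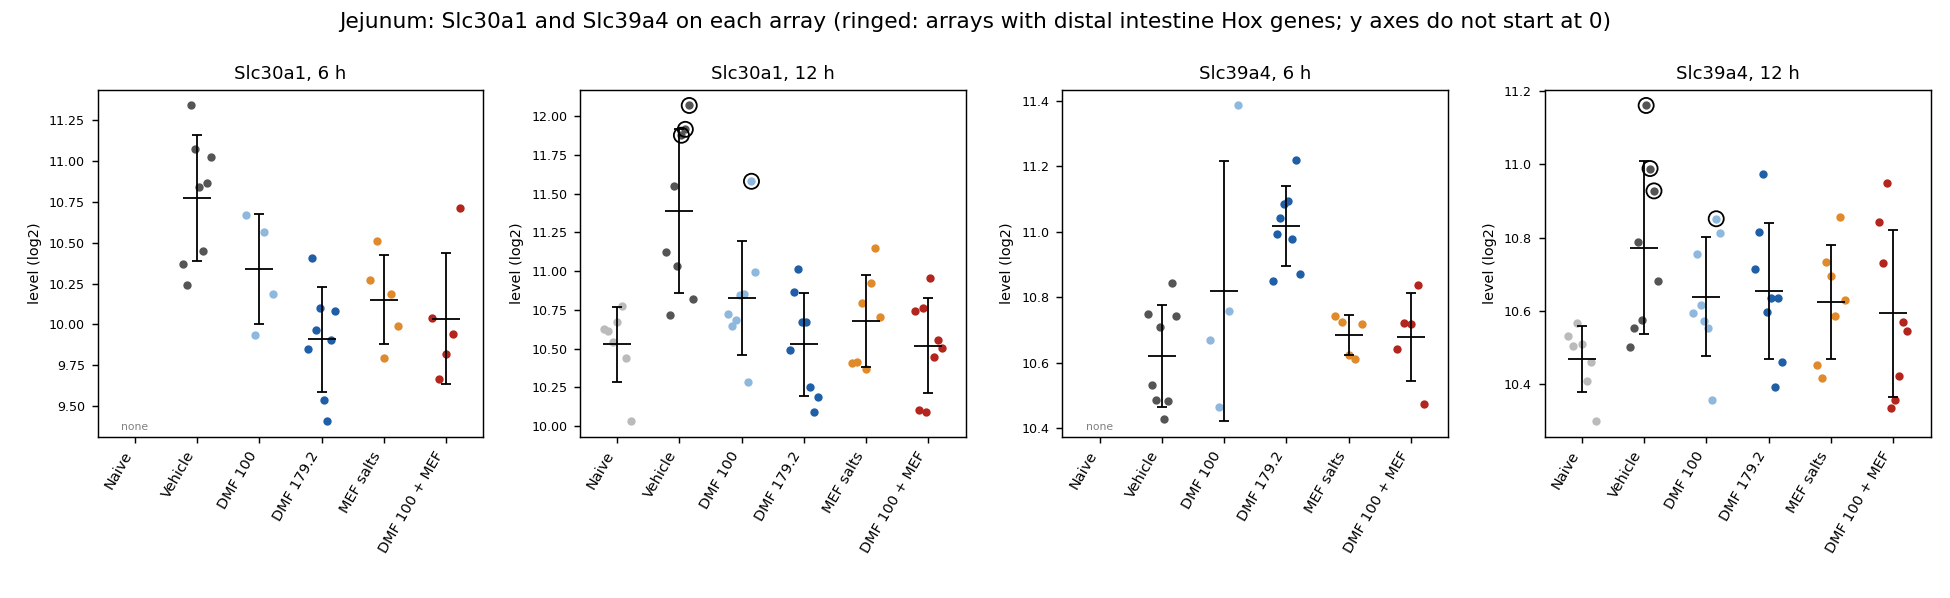
Levels (log2, y axes not starting at 0) of Slc30a1 and Slc39a4 on each jejunum array by treatment group at 6 and 12 h, with mean and SD in black. Rings mark the 4 arrays with Hox genes of the distal intestine, all at 12 h, which hold the highest Slc30a1 values (11.58 to 12.07).

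In the mesenteric lymph nodes, which drain the gut, Mt1 rose at 12 h. The 8 vehicle arrays ran from 8.38 to 9.16 with a median of 8.79, the combination from 9.01 to 9.62 with a median of 9.29, and DMF 179.2 from 9.04 to 9.68 with a median of 9.49. The dosed ranges overlapped only the top of the vehicle range. Mt1 was 1.55-fold higher after DMF 179.2 (0.63 ± 0.14, FDR 0.00059622) and 1.40-fold higher after the combination (0.48 ± 0.14, FDR 0.026058). The changes after the MEF salts (0.08) and DMF 100 (0.16) were not called. A second, dim Mt1 probe set (3.83 in vehicle) changed by 0.08 after DMF 179.2 and 0.09 after the combination. The fuller set of calls belonged to DMF 179.2 at 12 h, with Slc39a4 (0.26, FDR 0.0071763), Slc30a5 (0.17, FDR 0.035054) and Mtf1 (0.28, FDR 0.046887) higher and Slc39a14 lower (-0.41 ± 0.13, FDR 0.022782). That made 4 higher and 1 lower of 10 against 13.8% of all genes, and 1 higher for the combination against 4.24%. The Mtf1 call was lost with place in the model (0.25, FDR 0.15) and its other probe set did not rise (-0.06). The MEF salts and DMF 100 had no call at 12 h (0.602% and 0.0819% of all genes). At 6 h none of the 10 was called in any group, where 0.00585% (MEF salts), 0.181% (combination), 0.0234% (DMF 100) and 0.392% (DMF 179.2) of all genes were. Mt1 was then at 0.41 after DMF 179.2 (FDR 0.25), and at 0.58 (FDR 0.0037827) without vehicle animal 58, whose 10.45 stood above the other vehicle arrays.

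In the inguinal nodes Mt1 was called only after DMF 179.2 at 12 h. The 4 vehicle arrays read 7.92, 8.99, 8.80 and 9.03, and the 6 DMF 179.2 arrays ran from 9.22 to 9.70. The groups did not overlap and the difference was 1.68-fold (0.75 ± 0.17, FDR 0.0024532). On the dim Mt1 probe set (4.04 in vehicle) the difference was 0.10. The difference on the main probe set leaned on vehicle animal 1 at 7.92, without which it was 0.50 (FDR 0.11). Slc39a4 was higher in the same comparison (0.36 ± 0.09, FDR 0.0053807, and 0.26 with FDR 0.13 without that animal). Those were 2 of 10 genes where 12.3% of all genes were called. The other dosed groups had Mt1 changes at 12 h of 0.45 (DMF 100), 0.42 (MEF salts) and 0.32 (combination), none of them called, where 1.27%, 1.05% and 3.53% of all genes were. Without vehicle animal 1 they were 0.19, 0.16 and 0.06. The vehicle arrays also differed in make-up. Their mean over 4 mast cell genes was 5.16 (lowest array 2.91), against group means of 6.24 to 6.87 in the dosed and naive ILN groups at 12 h. The part of this in the Mt1 differences was not tested. At 6 h none of the 10 genes was called, against 0.00585% of all genes for the MEF salts, 0.433% for the combination, 0.0292% for DMF 100 and 0.234% for DMF 179.2. The Mt1 effect of DMF 179.2 was larger at 12 h than at 6 h by 0.79 ± 0.22 (FDR 0.027414, 3.83% of all genes called), and by 0.54 (FDR 0.27) without vehicle animal 1.

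In spleen Mt1 rose at 6 h after DMF 179.2, from 9.26 ± 0.28 to 9.84 ± 0.17 (0.58 ± 0.15, FDR 0.0027993), with arrays that overlapped. The combination, with 4 arrays at 9.37, 10.18, 9.66 and 9.88, was at 0.51 (FDR 0.08993) and the MEF salts at 0.22, neither called. On the dimmer Mt1 probe set (5.06 in vehicle) the change was 0.04 after DMF 179.2, 0.02 after the combination and 0.11 after the MEF salts. Slc30a5 also rose after DMF 179.2 (0.17, FDR 0.0079656), but was at 0.11 (FDR 0.14) with place in the model. These were 2 of 10 genes against 23% of all genes, and the other groups had none at 6 h (3.5% for the MEF salts, 3.98% for the combination, 0.146% for DMF 100). At 12 h only Slc39a10 after the MEF salts was called (-0.26, FDR 0.048953), in a comparison that called 0.924% of all genes. The combination, DMF 100 and DMF 179.2 had none (3.36%, 0.0175% and 0.474%). The dimmer Slc39a10 probe set did not fall after the MEF salts at 12 h (0.02). Pancreatic or liver genes were carried at 6 h by 4 of 8 vehicle and 0 of 7 DMF 179.2 spleen arrays, and without such arrays the Mt1 difference was 0.57 (FDR 0.0098969).

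Brain and blood showed little. In brain, Mt1 changes lay between -0.10 and 0.08 and none was called. Slc30a1 was lower after DMF 179.2 at 12 h (-0.16 ± 0.04, FDR 0.045954) where 1.31% of all genes were called, and at -0.06 (FDR 0.41) with place in the model. No other brain comparison with vehicle called any of the 10. The shares of all genes called there were 0.123% (MEF salts), 0.105% (combination), 0.0117% (DMF 100) and 7.2% (DMF 179.2) at 6 h, and 0.0877%, 1.45% and 0.0234% for the first 3 at 12 h. In whole blood none of the 10 genes was called in a dosed group. Mt1 was dim in blood, with a mean of 3.58 against 4.72 for the median gene, so a change could be missed. At 6 h its vehicle mean of 4.53 was lifted by animal 54 at 8.47, and its changes were -0.77 to -0.45. Slc30a2 (2.32) and Slc39a5 (2.71) lay near the lowest value of the blood arrays. Few genes were called there at all: 0%, 0.00585%, 0% and 0.0702% at 6 h and 0.00585%, 0.216%, 0.0351% and 0.322% at 12 h, for the MEF salts, the combination, DMF 100 and DMF 179.2.

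Outside kidney, dosed groups differed from each other mainly in Slc30a5. The combination and DMF 100 sat at the same animal places, but the other pairs of groups named here sat partly at different places. In those pairs place and treatment cannot be told apart in full. In MLN at 12 h it was lower in the combination than in DMF 100 (-0.23, FDR 0.018625, 2.02% of all genes called) and than in DMF 179.2 (-0.28, FDR 0.00042225, 15.6% called), and lower in the MEF salts than in DMF 100 (-0.28, FDR 0.0019056, 4.32% called). In spleen at 6 h it was lower in the MEF salts than in DMF 100 (-0.23, FDR 0.0033634, 4.7% called) and in the combination than in DMF 179.2 (-0.21, FDR 0.02536, 5.11% called). Slc39a4 was lower in the combination than in DMF 179.2 in MLN at 12 h (-0.22, FDR 0.025297). In spleen Slc30a1 was higher in the MEF salts than in DMF 100 at 6 h (0.20, FDR 0.048958), and Slc39a10 lower at 12 h (-0.24, FDR 0.027483, 4.75% called). The dimmer Slc30a1 probe set differed little in spleen at 6 h, with means of 5.75 (MEF salts) and 5.71 (DMF 100). The dimmer Slc39a10 probe set was also lower at 12 h, with means of 5.27 and 5.49.

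Vehicle and naive animals also differed outside kidney. In MLN, vehicle was higher for Slc30a1 (0.21), Slc39a10 (0.24) and Slc39a14 (0.42) and lower for Mtf1 (-0.45, FDR 0.00043194), or 4 of 10 genes against 24.4% of all genes. In spleen, with 3 naive arrays, vehicle was higher for Slc30a5 (0.21) and Slc39a10 (0.39), against 18.3% of all genes. In ILN Slc30a1 was higher (0.18, 14.5% called). In jejunum Slc39a4 was higher (0.30) and Slc39a5 lower (-0.27) beside the Slc30a1 difference given above. Slc30a1 was thus higher after vehicle than in naive animals in kidney, MLN and ILN, and in jejunum as long as the arrays with Hox genes were kept.

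The wider zinc list held 18 further measured genes of the metallothionein, Slc30 and Slc39 families. In kidney at 6 h, 1 of the 18 was called higher after the MEF salts (5.9% of all genes called), 1 higher and 1 lower after the combination (13.2%), 2 higher and 2 lower after DMF 179.2 (25%) and none after DMF 100 (4.07%), which is near the share of all genes. The genes called higher there were importers of the Slc39 family, such as Slc39a9 after the MEF salts (0.15, FDR 0.046846) and Slc39a1 after DMF 179.2 (0.20, FDR 0.0083257). Slc30a9, a mitochondrial zinc transporter, was lower in kidney after the combination at 6 h (-0.18, FDR 0.014262) and 12 h (-0.34, FDR 3.0592e-05) and after DMF 179.2 at both times (-0.19 each), and after the MEF salts at 12 h (-0.14, FDR 0.043462). At 12 h the importer Slc39a8 was lower in kidney after the MEF salts (-0.46, FDR 8.2083e-05) and the combination (-0.38, FDR 0.008982). Slc39a1, a widely expressed plasma membrane importer, was higher in ILN at 12 h after DMF 179.2 (0.41, FDR 0.0019356), the MEF salts (0.34, FDR 0.04911) and the combination (0.30, FDR 0.033707). After the MEF salts it was lower in spleen at 6 h (-0.20, FDR 0.03785) and 12 h (-0.23, FDR 0.044497) and in kidney at 12 h (-0.22, FDR 0.0053809).

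The genes most like Mt1 over the 7 organs, by Pearson r within an organ after subtracting the mean of each time and then averaged over organs, were Eci2 (mean r 0.51), Selenbp1 (0.49), Plin2 (0.49), Aldh7a1 (0.49) and Selenbp2 (0.49). For Slc30a1 they were Cebpg (0.44), Ccdc6 (0.39), Rragc (0.39), 4833439L19Rik (0.38) and Cdc42se1 (0.38). Mt1 and Slc30a1 were alike in kidney (r 0.61) and close to 0 in jejunum. In jejunum Mt1 instead followed Slc30a2 (r 0.68). These are descriptions over arrays that share animals, treatments and a normalization.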

How the data were processed

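The values are probe set summaries on a log2 scale, deposited by the authors in a value table of all 550 arrays. RMA, GCRMA, R 2.11.1 and limma 3.4.5 are named, with no role or order, per the submitters' processing notes. Arrays of an organ and time share 1 lowest value (2.12 to 2.25), which holds 18.5% to 25.5% of values. Of 45141 probe sets, 28898 name 1 gene and 551 several, and the highest of each gene in an organ was kept. In each organ limma 3.58.1 (R 4.3.3) fitted 1 mean per group over all groups, with Benjamini-Hochberg adjustment within a comparison, and the method was checked on simulated data. The genes and lists were chosen with earlier results of these data known. All 10 genes are named, with up to 3 other zinc genes per comparison and the 5 genes most like Mt1 and Slc30a1. The number of arrays limits the precision. Alternatives changed the normalization, probe sets, variance model, groups fitted, filter and arrays kept, and added place in the order of animal numbers. Leaving out vehicle animals 58 and 54 was added after seeing the data. Figures used matplotlib 3.10.9, and promoter letters came from RefSeq (GRCm38.p6).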

Additional observations from a re-analysis of the deposited data

Results flagged for a closer look

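Mt1 and Slc30a1 were each screened in the 76 groups of 4 to 8 arrays, and 18 of these 152 screens had 1 array far from the rest, where chance gives about 1 in 20. The screens share animals across organs and Mt1 is dim in blood, so the count is a description and no excess over chance was tested. Vehicle animal 58 at 6 h had high Mt1 in MLN (10.45, group median 9.03), jejunum (12.39, median 11.46) and ILN (9.93, median 9.23), and the highest vehicle level in brain (12.56) and spleen (9.80). Combination animal 84 at 6 h was high for Mt1 in MLN (10.16, median 9.51) and ILN (10.17, median 9.25). In blood, Mt1 stood at 8.47 in vehicle animal 54 at 6 h (median 3.84), while the same animal was ordinary in kidney (11.68) and spleen (9.39). Further blood arrays apart for Mt1 at 12 h were DMF 100 animal 13 (4.11, median 3.10), DMF 179.2 animal 23 (5.11, median 2.98) and naive animal 45 (3.63, median 3.09).

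In brain at 12 h, Mt1 was apart in DMF 100 animal 13 (12.23, median 11.71), combination animal 35 (12.14, median 11.74) and naive animal 47 (11.91, median 11.70). Mt1 was also apart in MLN for DMF 100 animal 15 (9.38, median 8.92), and in jejunum for vehicle animal 6 (11.07, median 11.66), whose array carried distal intestinal Hox genes. For Slc30a1 the arrays apart were ILN of DMF 179.2 animal 73 at 6 h (9.90, median 10.21), ILN of combination animal 35 at 12 h (9.39, median 9.74), blood of DMF 179.2 animal 67 at 6 h (9.09, median 8.67) and blood of MEF animal 31 at 12 h (8.16, median 8.70).

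The effect of a dose differed between 6 and 12 h by limma's test of the difference for these genes, given as the 12 h effect minus the 6 h effect. In kidney it was -0.56, -0.31 and -0.23 for Mt1, Slc30a1 and Slc30a4 after the MEF salts, -0.47 and -0.36 for Mt1 and Slc30a1 after the combination, and -0.45 and -0.23 for the same pair after DMF 179.2. In jejunum Slc39a4 differed by -0.51 after DMF 179.2. In ILN Mt1 differed by 0.79 after DMF 179.2, which was 0.54 (FDR 0.27) without vehicle animal 1 at 12 h and 0.69 (FDR 0.055245) without vehicle animal 58 at 6 h.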

How the results depend on the processing

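Over all comparisons, 87 changes of the 10 genes were called, and 696 repeats under other settings kept 540 calls and lost 156, with none changing direction. Averaging all probe sets left 1 Mt1 call and 4 calls of the 10 genes after the MEF salts (2 and 7 as reported). Fitting only the groups compared left 14 calls after DMF 179.2 (24 as reported). Restricting to shared animal places kept 18 and lost 55, with far fewer arrays. Place as a covariate kept 73 and lost 14, quantile normalization kept 80 and lost 7, and leaving out arrays with genes of another tissue kept 26 and lost 11. Leaving out 1 array kept 43 and lost 18. Averaging probe sets kept 71 and lost 16, fitting only the groups compared kept 54 and lost 33, and leaving out vehicle animals 58 and 54, chosen after seeing the data, kept 9 and lost 2. A trended robust variance and leaving out dim genes lost none. No paired analysis was possible because the groups compared share no animal numbers. Changes of dim genes are understated near the common lowest value.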

Other observations

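Mt1 levels of different organs of 1 animal, taken as deviations from the group mean, were compared over 21 pairs of organs. Inguinal and mesenteric nodes deviated together over 73 animals (Pearson r 0.51, adjusted permutation p 0.00168, Spearman rho 0.36, adjusted permutation p 0.041055). Pearson r was 0.43 without the 2 animals farthest from the median and 0.41 with place removed (adjusted permutation p 0.0092399). Jejunum and kidney did so over 67 animals (r 0.43, adjusted permutation p 0.004935, rho 0.37, adjusted permutation p 0.041055), with r 0.37 without the 2 farthest animals and 0.41 with place removed. The other 19 pairs did not pass 0.05 after adjustment.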
